A study of Mus musculus with 6 samples.

Results

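Glycolysis was examined through 10 genes of the pathway, chosen as a named list: the hexokinases Hk1 and Hk2, Gpi1, Pfkl, Aldoa, Tpi1, Gapdh, Pgk1, Pkm and, for the step from pyruvate to lactate, Ldha. All 10 were found among the 21841 genes of the table. The libraries came from LYVE-1+ CD206+ macrophages (LYVE-1+ TAMs) sorted by FACS from mammary tumors, 5000 cells for each condition, and were measured by bulk RNAseq. Both groups shared the background FVB/N-Tg(MMTV-PyVT)634Mul/J, in which the MMTV promoter drives the polyoma middle T oncoprotein in mammary epithelium, and the labels give the genotype as WT and no age. A group of 3 mice received vehicle and a group of 3 received KCL-HO-1i, an inhibitor of heme oxygenase-1 (HO-1), by i.p. injection at 25 µmol/kg daily, and tumors were taken after 36 h in both. The question for these genes was what level each step of the pathway had in each mouse and whether the groups differed.

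Glycolysis splits glucose into pyruvate in the cytosol and yields ATP and NADH, and lactate dehydrogenase reoxidizes that NADH by turning pyruvate into lactate. Macrophages change their use of the pathway with activation and with oxygen supply, and several of its enzymes are known targets of the hypoxia-inducible factor. Many of the genes have processed pseudogenes, which are copies of the mRNA inserted elsewhere in the genome.

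Libraries were shallow, and replicates differed by more than counting error. Total counts were 206683, 215637 and 338205 in vehicle replicates 1, 2 and 3, and 207813, 319727 and 535214 in KCL-HO-1i replicates 1, 2 and 3. The summed counts of the 10 glycolytic genes were 149, 150 and 157 under vehicle against 123, 282 and 285 under KCL-HO-1i. As shares of all counts these were 0.0721%, 0.0696% and 0.0464% under vehicle and 0.0592%, 0.0882% and 0.0532% under KCL-HO-1i, which overlapped between the groups. Without Gapdh the shares were 0.0276%, 0.0213% and 0.0207% against 0.0481%, 0.0632% and 0.0370%, which did not overlap. With mitochondrial counts left out of the total, the shares of all 10 were 0.0749%, 0.0704% and 0.0471% against 0.0655%, 0.0904% and 0.0914%, which overlapped and put KCL-HO-1i replicate 3 highest. These shares were chosen after their values were seen and were not tested. Fewer cells and less RNA per cell cannot be told apart in such libraries. CPM are counts scaled to the library size after TMM normalization, and the detection floor of 3 counts corresponds to between 10.2 and 16.8 CPM. KCL-HO-1i replicate 3 stood apart, with 41.8% of its counts on mitochondrial genes against 1.17% to 9.68% in the other libraries, and KCL-HO-1i replicate 1 had counts on 7584 genes where the other libraries had 10781 to 17318. Within the list, vehicle replicate 2 had 0 counts of 4 genes (Aldoa, Tpi1, Pgk1 and Ldha) and KCL-HO-1i replicate 1 of 3 (Hk1, Gpi1 and Tpi1), against 1 gene in each other library.

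Before the steps are taken in turn, the count over the list was as follows. For 4 of the 10 genes (Aldoa, Pgk1, Pkm and Ldha) every KCL-HO-1i library lay above every vehicle library in CPM, against 759 of the 19518 genes with a count (3.89%). For 0 of the 10 every KCL-HO-1i library lay below every vehicle library, against 2554 of 19518 (13.1%). The other 6 genes overlapped between the groups. The share of counts on ribosomal protein genes, named after its values were seen, did not overlap either. It was 1.02%, 0.251% and 0.276% under vehicle and 2.14%, 2.45% and 1.57% under KCL-HO-1i. Its part in the glycolytic levels was not tested. Without KCL-HO-1i replicate 3 the 4 genes were again above, against 7.23% of all genes with a count. Without vehicle replicate 2 Pfkl joined them, against 5.35%, as it did without vehicle replicate 1, vehicle replicate 3 or KCL-HO-1i replicate 1. With fewer libraries more genes fall apart into groups without overlap. Of the 10, 4 passed the filter on low counts (Hk2, Aldoa, Gapdh and Pgk1), and 0 of these 4 were called by edgeR's quasi-likelihood test at an adjusted p under 0.05 and an absolute log2 fold change above 0.6, as were 0 of all 7263 genes tested (0%). At an unadjusted p under 0.05, edgeR gave 1 of the 4 (Aldoa) and 586 of the 7263 (8.07%). DESeq2 without a filter called 1 of the 10, again Aldoa, and 176 of 19509 genes (0.902%). The median difference in log2 CPM over all 10 genes, KCL-HO-1i minus vehicle, was 0.42, with 5 genes higher and 5 lower. It ranged from 0.17 to 1.09 without 1 mouse and was 0.096 with thinned counts. Hk2 and Gpi1 were lower on this measure, at -0.027 and -0.21. Their edgeR log2 fold changes with no filter were positive, at 0.36 and 0.54. Over the 19518 genes with a count the median was -0.57, and over the genes tested it was -0.77. When libraries were scaled to 15 general macrophage genes in place of TMM, the median of the 10 genes was -0.74 and that of the 19518 genes was -2.61, so that this scaling lowered both. Under it 0 of the 10 lay above, against 0.456% of the 19518 genes, and 3 lay below (Hk1, Hk2 and Gapdh), against 47.3%, so the 3 are no result about the list.

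**Figure D1:**
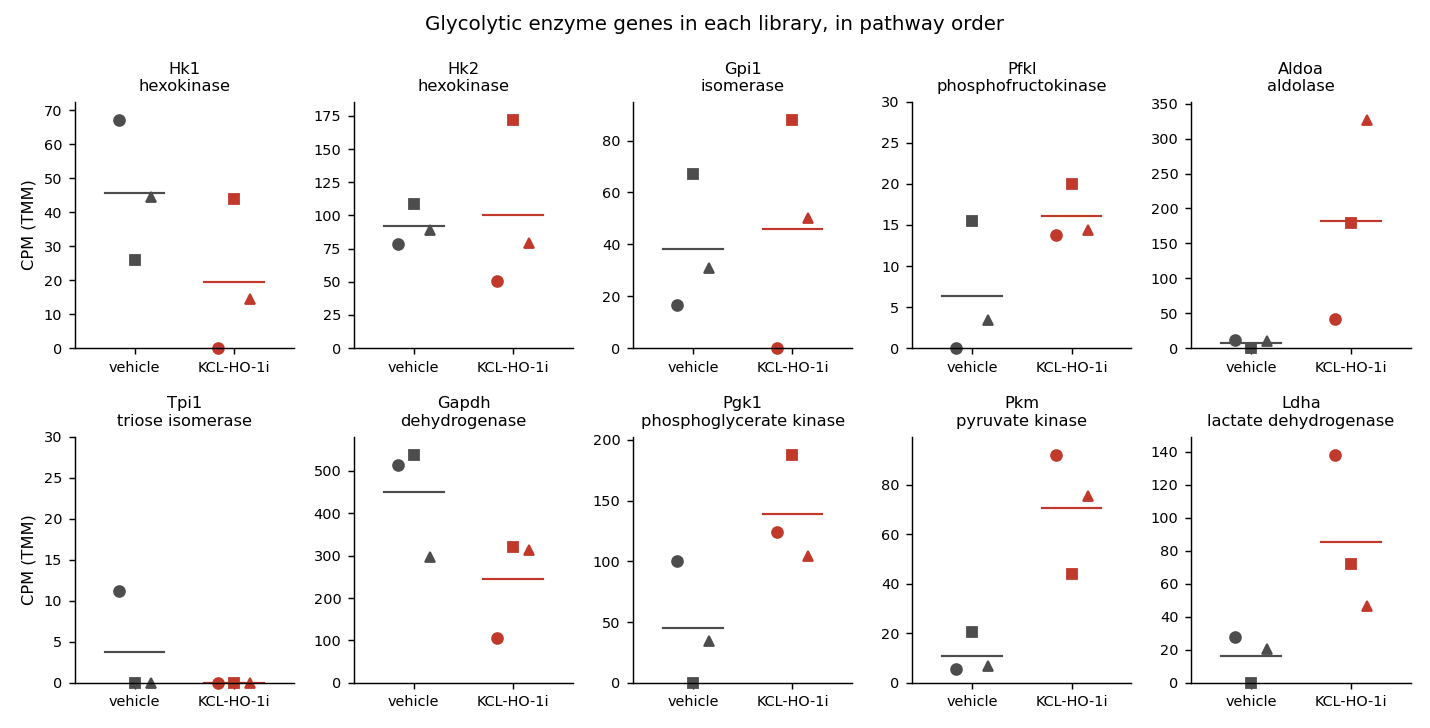
CPM after TMM scaling of the 10 genes in pathway order, with 1 point per library (circle, square and triangle for replicates 1, 2 and 3), a line at the mean of each group and a linear axis from 0 for each gene. For Aldoa, Pgk1, Pkm and Ldha the 3 KCL-HO-1i points lie above the 3 vehicle points, an order that for Pgk1 is lost with library totals in place of TMM, for Pkm and Ldha with thinned counts and for all 4 when libraries are scaled to macrophage genes.

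The first step, phosphorylation of glucose, is carried out by hexokinases. Hk1, the broadly expressed isoform, had 12, 5 and 13 counts under vehicle and 0, 11 and 4 under KCL-HO-1i, or 67.1, 25.8 and 44.4 CPM against 0, 43.9 and 14.4 CPM. Its highest library was vehicle replicate 1 and its lowest KCL-HO-1i replicate 1, and the groups overlapped. Hk1 did not pass the filter, and with no filter its log2 fold change was -0.97, smaller than its standard error (SE) of 1.75 (adjusted p = 0.969, edgeR). Hk2, the inducible isoform, had 14, 21 and 26 counts under vehicle and 11, 43 and 22 under KCL-HO-1i. In CPM this was 78.2, 108.5 and 88.8 against 50.7, 171.8 and 79.0, so that KCL-HO-1i held both the highest and the lowest library. The log2 fold change of Hk2 was 0.13 (SE 0.925, adjusted p = 0.982, edgeR). The sign of Hk2 was negative with library totals (-0.22), with macrophage scaling (-3.19) and without KCL-HO-1i replicate 2 (-0.51). Hk2 made up 53.8%, 80.8% and 66.7% of the counts on both hexokinases under vehicle and 100%, 79.6% and 84.6% under KCL-HO-1i. The 95% Wilson intervals spanned 35.5% to 91.5% over the vehicle libraries and 66.5% to 100% over the KCL-HO-1i libraries. The shares of the groups overlapped, and the mean share was 21.0 percentage points higher under KCL-HO-1i (two-sided exact permutation test, p = 0.2, adjusted p = 0.4 over 4 isozyme shares, where 3 mice against 3 allow no p below 0.1).

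The following steps rearrange glucose 6-phosphate and commit it to the pathway. Gpi1, glucose-6-phosphate isomerase, had 3, 13 and 9 counts under vehicle (16.8, 67.2 and 30.7 CPM) and 0, 22 and 14 under KCL-HO-1i (0, 87.9 and 50.2 CPM). The KCL-HO-1i libraries again held both extremes. Pfkl, the liver-type subunit of phosphofructokinase, which catalyses the committed step, had 0, 3 and 1 counts under vehicle and 3, 5 and 4 under KCL-HO-1i. No library held more than 5 counts of Pfkl, and the groups overlapped. Pfkl did not pass the filter. With no filter its log2 fold change was 1.51, smaller than its SE of 2.27 (adjusted p = 0.955, edgeR). The muscle-type Pfkm had 3 counts in vehicle replicate 1 and 0 elsewhere, and the platelet-type Pfkp had 21 counts in KCL-HO-1i replicate 3 and 0 elsewhere. The share of Pfkl in the counts on these 3 genes was 0%, 100% and 100% under vehicle and 100%, 100% and 16.0% under KCL-HO-1i (two-sided exact permutation test, p = 1). These shares rest on 1 to 25 counts per library.

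Aldolase cleaves fructose 1,6-bisphosphate into the triose phosphates, and Aldoa had the highest log2 fold change of the 10 genes. It had 2, 0 and 3 counts under vehicle and 9, 45 and 91 under KCL-HO-1i. After scaling this was 11.2, 0 and 10.2 CPM against 41.5, 179.8 and 326.6 CPM, with means of 7.14 ± 6.20 and 182.6 ± 142.6 CPM (SD, n = 3 each). Every vehicle library was at or under the floor of 3 counts, every KCL-HO-1i library was above it, and the KCL-HO-1i libraries themselves spanned a wide range. The log2 fold change was 4.56 (SE 1.32, adjusted p = 0.309, edgeR, Benjamini-Hochberg adjustment over 7263 genes), which missed the threshold. The other tools gave adjusted p-values of 0.0336 (DESeq2, unfiltered), 0.0151 (DESeq2, filtered) and 0.0426 (limma voom), and over all alternatives these ranged from 0.0151 to 0.809. With a mouse left out, Aldoa lay between 4.30 and 5.32 on the log2 scale where it passed the filter, and no edgeR fit of that kind called it. Without KCL-HO-1i replicate 2 or 3, the libraries with the most counts of Aldoa, it did not pass the filter and gave no value. The range therefore does not cover these fits. Scaled to the macrophage genes the log2 fold change was 1.51 (adjusted p = 0.353, edgeR).

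Of the other aldolases, Aldoc, the brain-type enzyme, had 7, 0 and 21 counts under vehicle and 0, 7 and 0 under KCL-HO-1i. Aldoa therefore took 22.2% and 12.5% of the counts on Aldoa and Aldoc in vehicle replicates 1 and 3, with Wilson intervals from 6.32% to 54.7% and from 4.34% to 31%. In KCL-HO-1i replicates 1, 2 and 3 the share was 100%, 86.5% and 100%, with intervals from 70.1% to 100%, from 74.7% to 93.3% and from 95.9% to 100%. Vehicle replicate 2 had 0 counts on either gene and gives no share, which leaves 2 vehicle libraries against 3, and these did not overlap. The mean share was 78.2 percentage points higher under KCL-HO-1i (p = 0.2 in a two-sided exact permutation test, which is the smallest that this comparison allows, adjusted p = 0.4 over 4 shares). With counts divided by transcript length the difference was 70.2 points. The vehicle shares rest on 9 and 24 counts. A share within a library does not change with the scaling of the library. The testis-type copies Aldoart1 and Aldoart2, singled out after their values were seen because they share sequence with Aldoa, had 8, 10 and 3 against 0, 6 and 0 counts and 10, 11 and 13 against 16, 11 and 0 counts. They held 13.6% and 6.25% of the 31-base words of the longest coding transcript of Aldoa. The estimated counts of Aldoa were whole in every library, and whether reads were split among these genes was not tested.

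Triose phosphate isomerase, which interconverts the products of aldolase, was close to undetected. Tpi1 had 2 counts in vehicle replicate 1 and 0 in the other 5 libraries. Both groups were at or under the floor and no fold is given. Without Tpi1 the median difference over the other 9 genes was 0.86 on the log2 CPM scale. That is the value of Pfkl, itself a gene of few counts. When libraries were scaled to the macrophage genes, the median over the 9 was -0.82.

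Gapdh, glyceraldehyde-3-phosphate dehydrogenase, reduces NAD+ at the next step and is widely used as a reference gene. It had 92, 104 and 87 counts under vehicle and 23, 80 and 87 under KCL-HO-1i, or 514.2, 537.6 and 297.0 CPM against 106.0, 319.6 and 312.2 CPM. KCL-HO-1i replicate 1 was the lowest library and vehicle replicates 1 and 2 were the highest, while the remaining 3 libraries lay between 297.0 and 319.6 CPM, so the groups overlapped. The log2 fold change was -0.87 (SE 0.761, adjusted p = 0.897, edgeR). Without KCL-HO-1i replicate 1 it was -0.21, and scaled to the macrophage genes it was -4.09 (adjusted p = 0.0139, edgeR), which then was a call. That scaling called 4404 of the 7263 genes, 4392 of them lower, with a median log2 fold change of -3.70 over all genes tested, so the call of Gapdh is not particular to it. Over all alternatives the log2 fold change of Gapdh was negative and its adjusted p ranged from 0.0139 to 1.00 in edgeR, DESeq2 and limma voom. The share of Gapdh within the list was examined after its values were seen. Gapdh took 61.7%, 69.3% and 55.4% of the counts on the 10 genes under vehicle and 18.7%, 28.4% and 30.5% under KCL-HO-1i. The 95% Wilson intervals ran from 47.6% to 76.2% over the vehicle libraries and from 12.8% to 36.1% over the KCL-HO-1i libraries. These intervals cover counting error and not the spread between mice, and the difference was not tested. The other 9 genes summed to 57, 46 and 70 counts under vehicle and 100, 202 and 198 under KCL-HO-1i.

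Gapdh also shares more of its sequence with other genes than the other 9 do. Of the 31-base words in its longest coding transcript, 84.1% also occur in transcripts of other genes in GENCODE M21, 329 genes in all and 318 of them annotated as pseudogenes. Of these 329 genes, 8 are in the table. Gm10358 and Gm3839, protein-coding copies named after their values were seen, hold 72.7% and 67.3% of the words. Gm10358 had 0, 9 and 5 counts under vehicle against 0, 2 and 0 under KCL-HO-1i, and Gm3839 had 3, 0 and 1 against 0 in each. All 6 estimated counts of Gapdh were fractional, whereas Aldoa, Pgk1 and Ldha had whole counts in every library. The level of Gapdh is therefore uncertain, and the part of copies elsewhere in the genome in its counts was not tested. It lies on the minus strand of chromosome 6 of GRCm38 from 125161715 to 125166467 and overlaps Iffo1 on the opposite strand.

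**Figure D2:**
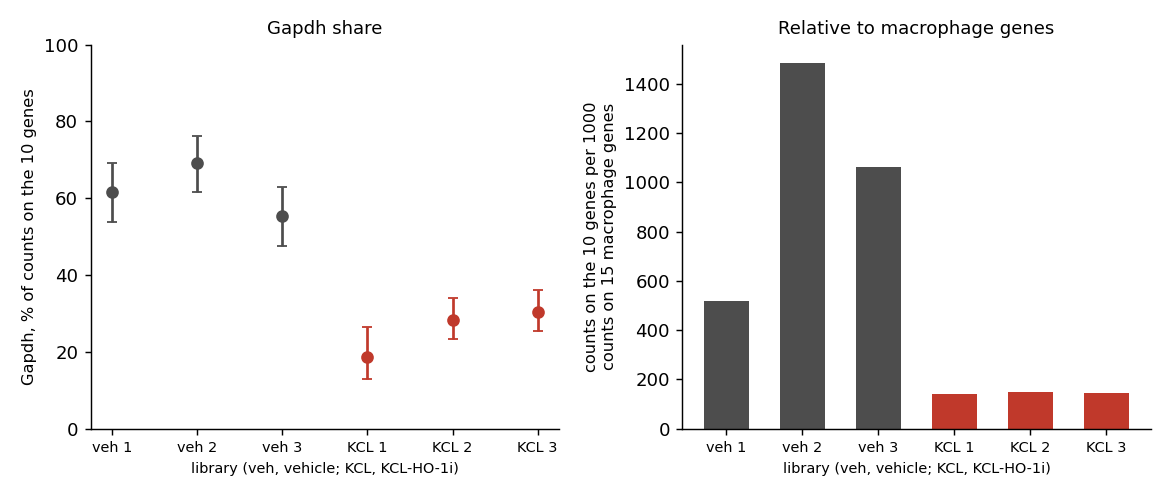
Left, share of Gapdh in the counts on the 10 genes in each library, in percent, with 95% Wilson intervals as bars. Right, counts on the 10 genes for each 1000 counts on 15 general macrophage genes, with bars from 0. The 3 vehicle libraries lie between 55.4% and 69.3% on the left and between 519.2 and 1485 on the right, and the 3 KCL-HO-1i libraries between 18.7% and 30.5% and between 139.6 and 149.5.

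Phosphoglycerate kinase forms the first ATP of the pathway. Pgk1 had 18, 0 and 10 counts under vehicle and 27, 47 and 29 under KCL-HO-1i, or 100.6, 0 and 34.1 CPM against 124.4, 187.8 and 104.1 CPM. All KCL-HO-1i libraries were higher, but vehicle replicate 1, at 100.6 CPM, lay close under KCL-HO-1i replicate 3, at 104.1 CPM, and with library totals in place of TMM the groups overlapped. The means were 44.9 ± 51.2 and 138.8 ± 43.7 CPM (SD, n = 3 each), with a log2 fold change of 1.63 (SE 1.25, adjusted p = 0.870, edgeR). Without vehicle replicate 1 it was 3.18, and scaled to the macrophage genes it was -0.92. Pseudogenes account for the 68.3% of 31-base words that Pgk1 shares with 6 other genes, and 0 of these 6 are in the table, so reads of such copies could have been counted on Pgk1.

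Pyruvate kinase makes pyruvate and ATP in the last step of glycolysis. Pkm had 1, 4 and 2 counts under vehicle and 20, 11 and 21 under KCL-HO-1i, or 5.59, 20.7 and 6.83 CPM against 92.2, 43.9 and 75.4 CPM. Each KCL-HO-1i library held at least 11 counts and each vehicle library at most 4. Pkm did not pass the filter, and with no filter its log2 fold change was 2.82 (SE 1.72, adjusted p = 0.704, edgeR). Ldha encodes the A subunit of lactate dehydrogenase. It had 5, 0 and 6 counts under vehicle and 30, 18 and 13 under KCL-HO-1i, or 27.9, 0 and 20.5 CPM against 138.3, 71.9 and 46.7 CPM. The groups did not overlap, and KCL-HO-1i replicate 1, the lowest library for Gapdh, was the highest for Ldha. The log2 fold change of Ldha with no filter was 2.51 (SE 1.58, adjusted p = 0.713, edgeR). After thinning all libraries to the smallest, both Pkm and Ldha overlapped between the groups, as they did when scaled to the macrophage genes. Ldhb, the B subunit, had 7, 5 and 1 counts under vehicle and 0, 10 and 14 under KCL-HO-1i. The share of Ldha in both subunits was 41.7%, 0% and 85.7% under vehicle and 100%, 64.3% and 48.1% under KCL-HO-1i, which overlapped (two-sided exact permutation test, p = 0.4, adjusted p = 0.533 over 4 shares).

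Levels of different genes can be compared only per length of transcript. As a reference, counts per kb were set beside those of 1474 olfactory and vomeronasal receptor genes, which act in sensory neurons of the nose. The upper bound of the central 95% of these genes was 9.03, 10.1 and 11.9 counts per kb under vehicle against 11.4, 7.84 and 12 under KCL-HO-1i. Gapdh exceeded this bound in all 6 libraries, with 64.8, 73.2 and 61.3 counts per kb under vehicle and 16.2, 56.3 and 61.3 under KCL-HO-1i. Pgk1 exceeded it in vehicle replicate 1 and in all 3 KCL-HO-1i libraries, Aldoa in KCL-HO-1i replicates 2 and 3, and Ldha in KCL-HO-1i replicates 1 and 2. Hk1, Hk2, Gpi1, Pfkl, Tpi1 and Pkm exceeded it in 0 libraries. Their counts per kb thus lay below the upper bound of the receptor genes. Per length, Gapdh ranked first among the 10 in every library but KCL-HO-1i replicate 1, where Ldha had 16.5 counts per kb and Gapdh 16.2, from 30 and 23 counts. In KCL-HO-1i replicate 3, Gapdh at 61.3 and Aldoa at 58.7 were close, from 87 and 91 counts. The receptor genes took 5.98% to 6.40% of all counts under vehicle and 2.20% to 4.18% under KCL-HO-1i, and their part in the levels of the glycolytic genes was not tested.

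The sorted cells were checked against their markers. Adgre1, which encodes F4/80, had 3, 3 and 1 counts under vehicle and 26, 44 and 72 under KCL-HO-1i. Mrc1, which encodes CD206, had 12, 0 and 3 against 31, 31 and 104, Lyve1 had 22, 8 and 12 against 8, 38 and 36, and Ptprc, which encodes CD45, had 4, 6 and 0 against 0, 18 and 94. Defining markers were thus at 0 in vehicle replicates 2 (Mrc1) and 3 (Ptprc) and in KCL-HO-1i replicate 1 (Ptprc). Adgre1 was at or under the floor of 3 counts in every vehicle library and above it in every KCL-HO-1i library. Mrc1 was at or under the floor in vehicle replicates 2 and 3, and Lyve1 was above it in every library. The 15 general macrophage genes summed to 287, 101 and 148 counts under vehicle and 881, 1886 and 1966 under KCL-HO-1i, led by Lyz2 (lysozyme), and 6 of the 15 were higher in every KCL-HO-1i library, against 3.89% of all genes with a count. The other 9 overlapped, among them Cd68 with 8, 9 and 8 against 0, 14 and 4 counts and Cx3cr1 with 10, 23 and 14 against 0, 27 and 0, both named after their values were seen. The 16 perivascular macrophage genes, led by the chemokine gene Ccl8, summed to 868, 89 and 225 against 3429, 9293 and 5899 counts, with 11 of 16 higher in every KCL-HO-1i library and 0 lower, against 3.89% and 13.1%. Hmox1, which encodes the drug target HO-1, had 3, 0 and 11 counts under vehicle and 148, 316 and 293 under KCL-HO-1i.

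A ratio to the macrophage genes moves with their own counts, which were higher in each KCL-HO-1i library. Set to 1000 counts of the 15 general macrophage genes, the 10 glycolytic genes had 519.2, 1485 and 1061 counts under vehicle and 139.6, 149.5 and 145.0 under KCL-HO-1i. As given above, 47.3% of all genes with a count lay below without overlap when scaled to these macrophage genes. The 3 KCL-HO-1i libraries lay close together on this scale, which mitochondrial counts do not enter, and the vehicle libraries spread over a wider range. The same ratio for Gapdh was 320.6, 1030 and 587.8 against 26.1, 42.4 and 44.2, whereas Aldoa had 6.97, 0 and 20.3 against 10.2, 23.9 and 46.3 and the groups overlapped. Vehicle libraries held 101 to 287 counts on the macrophage genes, so these ratios are imprecise. The part of macrophage content in the glycolytic levels was not tested.

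Markers of other cell types were present at varied levels. The 11 mammary epithelial genes summed to 66, 19 and 63 counts under vehicle and 357, 115 and 232 under KCL-HO-1i, led by the milk protein gene Csn3 with 39, 1 and 18 against 244, 79 and 176 counts, and 2 of 11 were higher (Csn3 and Lalba) and 1 lower (Cdh1) in every KCL-HO-1i library, against 3.89% and 13.1% of all genes with a count. Lalba and Cdh1 were, like the other marker genes given here that are not the most abundant of their list, chosen after their values were seen. Epcam, which defines the epithelium, had 5, 0 and 0 against 0, 4 and 9 counts, and the milk protein genes Csn2 and Wap were at 0 in all vehicle libraries and in KCL-HO-1i replicate 2. Summed counts of the 7 endothelial genes were 48, 52 and 81 against 24, 43 and 28 (most abundant Vwf, with 0 higher and 1 of 7 lower, Cdh5), and those of the 7 fibroblast genes were 57, 58 and 101 against 15, 20 and 58 (Pdgfra, 0 higher and 1 of 7 lower, Pdgfra). For 9 lymphocyte genes they were 23, 38 and 42 against 30, 43 and 17 (Cd8a, 0 of 9 in either direction). For 6 neutrophil genes they were 16, 10 and 20 against 2, 10 and 57 (Csf3r, 0 higher and 1 of 6 lower, Mpo). S100a8 and S100a9, the defining neutrophil genes, were both at 0 in vehicle replicates 2 and 3 and in KCL-HO-1i replicate 1. The 6 erythroid genes had 10, 0 and 6 against 2, 170 and 31 counts (Hba-a1, 0 of 6 in either direction), the 5 adipocyte genes 33, 28 and 83 against 31, 41 and 0 (Plin1, 0 higher and 1 of 5 lower, Lipe) and the 5 skeletal muscle genes 5, 19 and 19 against 24, 44 and 48 (Ckm, 0 of 5 in either direction). Their part in the glycolytic levels was not tested. The animal codes start with PY121 in all vehicle mice and with PY119 or PY120 in the KCL-HO-1i mice, so any batch along these codes and the treatment cannot be told apart.

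Around the pathway, 0 genes of the lists of transport, isozymes, fructose 2,6-bisphosphate, pyruvate dehydrogenase, pentose phosphates, gluconeogenesis and hypoxia were called by edgeR or by DESeq2 without a filter (0% and 0.902% of all genes tested). Of the 74 genes of these lists, 21 passed the filter, and 0 of the 21 had an unadjusted p under 0.05 in edgeR, against 8.07% of all genes tested. With no filter 4 of 69 did in edgeR (Dlat, Pdha1, Pfkp and Pgls), against 7.66%, and 4 of 69 in DESeq2 (G6pc, Pdha1, Pgls and Slc2a1), against 7.94%. Of all genes with a count, 3.89% were higher and 13.1% lower in every KCL-HO-1i library. The lists of 5 to 21 genes held 0 to 2 genes in either direction, too few to tell a list apart from these shares. Genes named from them as higher or lower are a description. Of 7 genes of glucose and lactate transport, 3 passed the filter, and these were the monocarboxylate transporters Slc16a1, Slc16a3 and Slc16a7, with log2 fold changes of -1.16, -0.59 and -0.48 that were each smaller than their standard errors of 1.23, 0.862 and 0.973. Among the rest, named after their values were seen, 1 of 7 was higher in every KCL-HO-1i library, Bsg, which encodes basigin, a chaperone of Slc16a1 and Slc16a3, with 3, 8 and 8 against 24, 26 and 12 counts. In turn 1 of 7 was lower, Slc2a1, which encodes the glucose transporter GLUT1, with 2, 19 and 6 against 0, 2 and 0 counts. Of the 21 other isozymes and steps, 3 passed the filter. Pgam1, phosphoglycerate mutase, had 14, 10 and 28 counts under vehicle and 16, 39 and 145 under KCL-HO-1i, or 1.72 on the log2 scale (SE 0.921, adjusted p = 0.728, edgeR). KCL-HO-1i replicate 1 was within the vehicle range for Pgam1, and the groups overlapped. The enolase genes Eno1 and Eno1b, at 0.46 and 0.00 on the log2 scale, share 75.6% of the 31-base words of Eno1, which makes the division of reads among both uncertain. Their counts were 13, 8 and 15 under vehicle and 31, 14 and 8 under KCL-HO-1i for Eno1, and 13, 9 and 10 against 14, 4 and 20 for Eno1b.

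Control and exit points of glycolysis varied among the KCL-HO-1i libraries. Pfkfb3, which makes the activator fructose 2,6-bisphosphate, was the 1 of 5 genes of its list to pass the filter and had 22, 25 and 17 counts under vehicle and 0, 42 and 91 under KCL-HO-1i. KCL-HO-1i replicates 2 and 3 were above and replicate 1 below all vehicle libraries (log2 fold change 0.68, SE 1.26). Pfkfb2, of the same family, had 0, 15 and 4 against 0, 4 and 3 counts, and Tigar, which degrades that activator, 4, 0 and 4 against 0, 6 and 0. Among 11 genes of the pyruvate dehydrogenase complex and its regulators, 1 was higher and 2 were lower in every KCL-HO-1i library. The higher gene was Pdha1, named after its values were seen, whose product is the E1 alpha subunit that takes pyruvate to acetyl-CoA. It had 8, 0 and 9 counts under vehicle and 21, 34 and 55 under KCL-HO-1i (log2 fold change 2.49, SE 1.23, adjusted p = 0.661, edgeR). The most abundant genes of the list were the phosphatases Pdp1 and Pdp2 and the E2 subunit gene Dlat, with log2 fold changes of -0.53, -0.17 and 2.36. Dlat had 6, 0 and 19 against 0, 20 and 122 counts and its groups overlapped. The lower genes, also named after their values were seen, were Dld with 6, 4 and 3 and the kinase gene Pdk3 with 7, 1 and 6 vehicle counts, and both were at 0 in all KCL-HO-1i libraries.

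Pathways that branch from glycolysis or oppose it had few counts. In the pentose phosphate list, 1 of 8 genes was higher (Pgd) and 1 lower (Rpe) in every KCL-HO-1i library, both named after their values were seen and with at most 12 counts in a library. H6pd had 12, 21 and 50 counts under vehicle and 17, 15 and 0 under KCL-HO-1i, the transketolase gene Tkt 17, 22 and 2 against 0, 6 and 12, and Pgls 0 in each vehicle library against 0, 6 and 41. In the gluconeogenesis list, 0 of 7 were higher and 2 were lower, namely G6pc, the catalytic subunit of glucose-6-phosphatase, and the pyruvate carboxylase gene Pcx. G6pc had 14, 21 and 28 counts under vehicle and 0, 8 and 1 under KCL-HO-1i (log2 fold change -2.93, SE 1.45, adjusted p = 0.662, edgeR), and Pcx had 9, 22 and 15 against 1, 6 and 0 (-2.85, SE 1.54, adjusted p = 0.731, edgeR). Pck2, the mitochondrial phosphoenolpyruvate carboxykinase, had 25, 8 and 22 against 0, 14 and 3 counts and overlapped.

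The last list held genes of the hypoxia response. Of 15 genes, 0 were higher and 1 was lower in every KCL-HO-1i library (Epas1, named after its values were seen, with 10, 6 and 23 against 0, 0 and 8 counts). Hif1a, the oxygen-regulated subunit of the factor, had 14, 37 and 16 counts under vehicle and 22, 27 and 83 under KCL-HO-1i (log2 fold change 0.65, SE 0.892). Egln1, a prolyl hydroxylase that marks it for degradation, had 19, 61 and 32 against 0, 33 and 14, and Vhl, which recognizes the mark, 9, 22 and 42 against 26, 8 and 57, so both overlapped.

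Promoters of the 4 genes that were higher in every KCL-HO-1i library are shown because hypoxia-inducible factor is known to bind a short core motif in several of them. RefSeq sequences on GRCm38.p6, from 250 bases before to 50 after each start, gave 15 windows for the 10 genes. The core was searched as ACGTG or GCGTG on both strands, where CACGTG counts once on each strand. It occurred in 10 of the 15 windows, against 43.8% of 32851 promoter windows, and 7 of the 15 held it at least 2 times against 20.6%. The motif is rich in G and C, and the median GC content was 62.3% in the 15 windows against 52.7% over all promoters. A pair of overlapping windows of Aldoa held the same match, which the 10 count in both. Windows of Gpi1 and Tpi1 held no match, which says only that these letters are not in them. A match is a description, not a site or a cause. Capitals mark the matches, 5′ to 3′ on the strand of the gene. Aldoa had 3 windows, of which 2 held that match, Pkm had 2 of which 1 did, Ldha had 2 that both did, and Pgk1 had 1. One window of each is given, chosen for its matches, namely chr7:126799205-126799504 (minus strand) for Aldoa, chrX:106186850-106187149 (plus) for Pgk1, chr9:59656977-59657276 (plus) for Pkm and chr7:46845554-46845853 (plus) for Ldha.
Aldoa: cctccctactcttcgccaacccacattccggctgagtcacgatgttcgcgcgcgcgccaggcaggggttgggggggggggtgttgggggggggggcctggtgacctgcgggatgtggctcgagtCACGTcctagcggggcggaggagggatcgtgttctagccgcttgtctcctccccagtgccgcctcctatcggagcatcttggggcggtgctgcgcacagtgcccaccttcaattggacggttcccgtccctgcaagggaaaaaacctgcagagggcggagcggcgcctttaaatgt
Pgk1: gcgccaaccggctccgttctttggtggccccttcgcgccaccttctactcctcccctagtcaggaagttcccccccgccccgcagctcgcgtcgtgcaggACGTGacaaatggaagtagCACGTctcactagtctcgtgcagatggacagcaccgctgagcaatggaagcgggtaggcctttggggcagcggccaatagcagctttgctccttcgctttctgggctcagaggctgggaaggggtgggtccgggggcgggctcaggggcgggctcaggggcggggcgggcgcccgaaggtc
Pkm: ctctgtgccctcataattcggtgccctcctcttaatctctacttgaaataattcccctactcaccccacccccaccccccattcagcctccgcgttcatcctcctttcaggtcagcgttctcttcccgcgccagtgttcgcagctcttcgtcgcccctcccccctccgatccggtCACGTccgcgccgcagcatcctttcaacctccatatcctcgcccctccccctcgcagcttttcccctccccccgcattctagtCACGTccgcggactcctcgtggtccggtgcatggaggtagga
Ldha: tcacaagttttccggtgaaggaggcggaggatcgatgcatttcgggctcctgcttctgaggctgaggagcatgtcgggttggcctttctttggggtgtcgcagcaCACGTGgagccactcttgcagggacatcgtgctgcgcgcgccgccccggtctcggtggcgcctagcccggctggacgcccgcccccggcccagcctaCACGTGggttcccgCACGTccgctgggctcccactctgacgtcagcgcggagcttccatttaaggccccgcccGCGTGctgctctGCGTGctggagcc
The window of Ldha held 7 matches, that of Pgk1 held 2, that of Pkm held 2 and that of Aldoa held 1. Of the genes whose groups overlapped, Hk1 held 5 in 1 of its 2 windows and 0 in the other, Gapdh held 3, Hk2 held 2 and Pfkl held 1.

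The genes most like the mean of the 10 genes over the 6 libraries were found by the Pearson correlation of log2 CPM with their mean standardized level. They were sought among 2343 genes outside all lists with a mean of at least 100 CPM. The mean level gave each of the 10 genes the same weight, Tpi1 and Pfkl with their few counts included. It was lowest in KCL-HO-1i replicate 1 (-0.358), where Aldoa, Pgk1, Pkm and Ldha lay above every vehicle library. Among the most alike were Ehd1, an endocytic recycling gene, with r = 0.991, and Gnai3, a G protein subunit gene, with r = 0.953. Ehd1 had 33, 28 and 33 counts under vehicle and 22, 104 and 70 under KCL-HO-1i. In CPM, Ehd1 was lowest in KCL-HO-1i replicate 1 and highest in KCL-HO-1i replicate 2. Gnai3 had 19, 12 and 22 against 9, 55 and 39 counts. All these values share the depth of 6 libraries, and the highest of 2343 correlations over 6 points is a description.

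The positions of the 4 genes are, on GRCm38 in GENCODE M21, chromosome 7 from 126795234 to 126800751 on the minus strand for Aldoa, chromosome X from 106187100 to 106203699 on the plus strand for Pgk1, chromosome 9 from 59656368 to 59679375 on the plus strand for Pkm and chromosome 7 from 46841475 to 46855627 on the plus strand for Ldha. They lie on 3 chromosomes. Aldoa overlaps Fam57b on the opposite strand, and whether the counting used strand is not given in the sources used here. Of the 31-base words of their longest coding transcripts, 34.2% in Aldoa, 50.9% in Pkm and 34.2% in Ldha occur in transcripts of other genes, most of them pseudogenes. Words that occur in other genes of the table make up 18.7% in Aldoa, 0.0416% in Pkm and 0.0% in Ldha, against 79.0% in Gapdh. Reads of copies outside the table could have been counted on these genes, which was not tested.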

How the data were processed

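The submitters' processing notes name FastQC 0.11.9, STAR 2.7.9a, Salmon 1.9.0, DESeq2 and the build mm10, and the methods add tximport. The annotation and the strand setting are not given in the sources used here. The values deposited were taken to be estimated counts per gene, not scaled to library size: the study's methods speak of TPM counts, but the column totals differ among libraries, which those of TPM would not. They were rounded, matched to mice by animal code (0 columns without a sample), filtered with filterByExpr (minimum count 10, total 15), scaled with TMM and tested with edgeR 4.0.16 in R 4.3.3, without covariates. CPM use the library sizes of that fit, over the genes that passed the filter. Differences in log2 CPM used a prior count of 2. Standard errors are the absolute log2 fold change over the root of F. Alternatives were DESeq2 1.42.0, limma 3.58.1, other scalings, filters and thresholds, a replicate block, thinned counts and each mouse left out. The edgeR fit was also run on simulated data, with an outcome not reported here. A count of 0 calls does not show that levels were the same.

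The members and lists were chosen with earlier results of these data known. Named genes are the 10 members, the genes of the transport and isozyme lists that passed the filter, up to 3 genes of each other pathway list with the highest mean CPM, genes called by edgeR, up to 3 genes most correlated with the members, the most abundant gene of each marker list, the sort markers and Hmox1. Outside this rule, Pfkm, Pfkp, Aldoc and Ldhb are named as partners in the planned isozyme shares. Any other gene is said to be chosen after seeing its values. Some genes of these rules are not reported here. Lengths and positions come from GENCODE M21 on GRCm38, matching 21613 of 21841 symbols, and promoters from RefSeq. Wilson intervals and floors cover counting error only, since the counts carry no molecular identifiers. Replicate libraries differed by more than sampling noise (chi-square per degree of freedom 6.64 to 37.3).

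DESeq2 without a filter was first run on genes with a count and, after its result was seen, on all 21841 genes, since the plan said no more than without a filter and fits both. Both counts are given, together with a run whose independent filtering was set for an adjusted p of 0.1.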

Additional observations from a re-analysis of the deposited data

How the results depend on the processing

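The count of 0 glycolytic genes called by edgeR also held with RLE size factors, library totals, no filter, at least 10 counts in every library, no mitochondrial genes, thinned counts, no fold change threshold and each mouse left out, while 586 genes had an unadjusted p under 0.05. It was 1 (Aldoa) in DESeq2 without a filter, DESeq2 on the filtered genes and limma voom, and 1 (Gapdh, lower) when libraries were scaled to the macrophage genes. Over all genes DESeq2 called 176 of 19509 without a filter (110 higher, 66 lower) and 236 of 7260 filtered (164 higher, 72 lower). Calls by limma voom numbered 299 of 7263 (293 higher, 6 lower) and those with macrophage scaling 4404 of 7263 (12 higher, 4392 lower). All 10 glycolytic genes entered the unfiltered DESeq2 fit, and 4 entered each of the others. With no filter edgeR called 82 of 19518 (70 higher, 12 lower). With at least 10 counts in every library it called 67 of 948 (61 higher, 6 lower). Without 1 mouse it called 0 to 74, the 74 of 9853 (72 higher, 2 lower) without vehicle replicate 1. DESeq2 on genes with a count was run first and called 184, and the run on all genes with its 176 followed after that result was seen. DESeq2 with independent filtering for an adjusted p of 0.1, also chosen after seeing the data, called 164. The runs with 184 and 164 each called 1 glycolytic gene (Aldoa, adjusted p = 0.0322 and 0.0386, DESeq2). The replicate numbers belong to different mice and their deviations correlated at -0.00263, 0.055 and -0.0326, so the samples share only a number. With the number as a replicate block edgeR called 0 genes and 0 glycolytic genes, with Hk2 at -0.036 on the log2 scale, and 1 of the 3 numbers correlated best with its own. Hk2 was also negative with library totals (-0.22), macrophage scaling (-3.19), thinned counts (-0.12) and, of the fits without 1 mouse (-0.51 to 0.73), without KCL-HO-1i replicate 2. Pgk1 was at -0.92 with macrophage scaling. The median difference of the 10 genes was 0.78 with a prior count of 0.5, 0.23 with one of 5, 0.096 with thinned counts, -0.74 with macrophage scaling (-2.61 over all genes with a count) and 0.17 to 1.09 without 1 mouse. In alternatives chosen after seeing the data, 0 genes lay above without overlap with macrophage scaling (0.456% of all genes), 2 with thinned counts (Aldoa and Pgk1, 3.66%) and 4 to 5 without 1 mouse (5.35% to 10.3%), and those below numbered 3 with macrophage scaling (47.3%), 1 with library totals (Gapdh, 15.9%) and 0 to 1 without 1 mouse (14.2% to 24.8%, Gapdh without vehicle replicate 3, Hk1 without KCL-HO-1i replicate 2). The difference in the Pfkl share, 5.33 points, ranged from -28.0 to 33.3 without 1 mouse, with -8.67 without KCL-HO-1i replicate 1 or 2. The other 3 shares kept their direction in every alternative run. Without the library highest in mitochondrial counts, KCL-HO-1i replicate 3, the 4 higher genes were again 4. Aldoa did not pass the filter with thinned counts, with at least 10 counts in every library, or without KCL-HO-1i replicate 2 or 3, and gave no value there. The causes of these shifts were not tested. Depth is a limit, since 6 of the 10 genes did not pass the filter, and so are the spread between replicates and the scaling.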
